A study of Drosophila melanogaster with 20 samples.

Results

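Semaphorins are guidance cues and plexins are their receptors. The 8 genes described here are those of Drosophila: the 5 semaphorins Sema1a, Sema1b, Sema2a, Sema2b and Sema5c, the plexins PlexA and PlexB, and Mical, an effector of PlexA. They were chosen by name and for their biology, though with earlier results of these data known. The reason was that Off-track, the product of otk, was first described as a receptor that associates with plexin. The members are 8 of the 17714 genes measured, and all 8 averaged 10 counts or more, the filter that left 11154 genes to be tested.

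RNA of whole embryos laid over 24 h at 25 °C was sequenced, so that each library mixes embryos of every age up to that time. There were 10 groups of 2 libraries (n = 2 at every value below). Besides WT they comprised overexpression of wnt4 (UAS-wnt4), of otk1 (UAS-otk1) and of both together (UAS-otk1 UAS-wnt4). The knockdown groups carried hairpins as otk2 RNAi, wnt4 RNAi, otk1 RNAi, otk1 RNAi wnt4 RNAi, otk2 RNAi wnt4 RNAi and otk1 RNAi otk2 RNAi. The annotation calls these genes otk (otk1), otk2 and Wnt4. By the study's methods a driver that joins maternal tubulin GAL4 and daughterless GAL4 expressed the transgenes, that is, in the egg and in nearly all cells of the embryo. The sources used here give neither whether the WT embryos carried the driver nor which of the listed hairpin stocks gave the RNA. Nor do they say if a group's 2 libraries are separate cage collections, so p-values cover only the spread between these libraries, which may be technical.

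As background, a semaphorin on one cell meets a plexin on another, and the plexin then changes the actin cytoskeleton and adhesion of its own cell, mostly so that a growing axon turns away. In the fly, the transmembrane semaphorins Sema1a and Sema1b bind PlexA, and the secreted Sema2a and Sema2b bind PlexB. Sema1a also acts as a receptor itself. Mical binds PlexA and oxidizes actin, which takes filaments apart. The system is best known from motor axons and the longitudinal tracts of the embryonic nerve cord, and PlexA and Sema5c also act in the follicle epithelium of the ovary.

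The targeted genes were checked first, in CPM, counts scaled by TMM to libraries of a common size. Wnt4 was at 126 and 107 CPM in WT and at 3050.2 and 2463 in UAS-wnt4. In the libraries labelled wnt4 RNAi it was at 159 and 143 CPM, above both WT libraries (log2 fold change 0.37 ± 0.15 (SE, adjusted p = 0.0544)), so the knockdown named by that label is not seen in the level of its target. In otk1 RNAi wnt4 RNAi it was at 76.6 and 89.2 CPM and in otk2 RNAi wnt4 RNAi at 74.9 and 82.9, lower than in WT. It was also below WT in groups with no wnt4 hairpin in their label, at 90.1 and 89.4 CPM in otk1 RNAi and 84.5 and 62.9 in otk2 RNAi, and in neither double knockdown did Wnt4 fall past the threshold against the single one (−0.11 ± 0.15 (SE, adjusted p = 0.661) for otk1 and 0.10 ± 0.15 (SE, adjusted p = 0.712) for otk2). For the 6 libraries of these 3 groups, a wnt4 hairpin is therefore named below only as their label gives it. The level of otk fell from 199 and 178 CPM in WT to 56.0 and 46.0 in otk1 RNAi and rose to 2194 and 1984 in UAS-otk1. The level of otk2 fell from 67.5 and 61.6 CPM to 28.4 and 23.6 in otk2 RNAi. Libraries held 33641557 to 41753919 counts. A stage score, the mean log2 CPM of neuron, muscle and cuticle genes minus that of maternal, germ plasm and blastoderm genes, was 2.15 and 0.832 in WT, 1.10 and −0.097 in UAS-wnt4, and between −1.07 and 0.400 in the other 16 libraries. The neuron and muscle genes were highest in the first WT library and the cuticle genes in the second, and the scores of WT and UAS-wnt4 overlap. This difference moves with the other 8 comparisons against WT.

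Compared per length, in the deposited TPM, a transcript's share of its library per length, Sema2a was the most abundant of the 8 genes, with a mean of 147 TPM over the 20 libraries. PlexA followed with 108 TPM, Sema1b with 72.0, PlexB with 56.8, Sema5c with 37.4, Mical with 27.3, Sema1a with 20.7 and Sema2b with 8.77. This order was the same in all 20 libraries and the same by mean FPKM. The range ran from the 93.4th percentile of the tested genes for Sema2a to the 37.1st for Sema2b. Each secreted semaphorin thus stood at one end of the order.

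The genes lie on 5 chromosome arms of the dm6 build (BDGP6). Sema1a (FBgn0011259) spans 2L:8542147-8672041 on the plus strand and has 7 annotated transcripts. Sema5c (FBgn0284221) spans 3L:12067511-12081830 on the minus strand, with 2 transcripts, and Mical (FBgn0053208) spans 3R:10001554-10042895 on the minus strand, with 14. Both plexins are on the small chromosome 4, on the minus strand, PlexA (FBgn0025741) at 4:1009895-1027101 and PlexB (FBgn0025740) at 4:32478-43778. Sema1b (FBgn0016059), Sema2a (FBgn0011260) and Sema2b (FBgn0264273) are on 2R. The sources used here do not say whether reads were counted by strand, but the annotated genes that overlap a member hold few reads. The largest are asRNA:CR45124 at PlexB, with a mean of 16.4 counts per library against 12674 for PlexB, and lncRNA:CR43855 at Sema1a, with 12.8 against 5870.

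**Figure D1:**
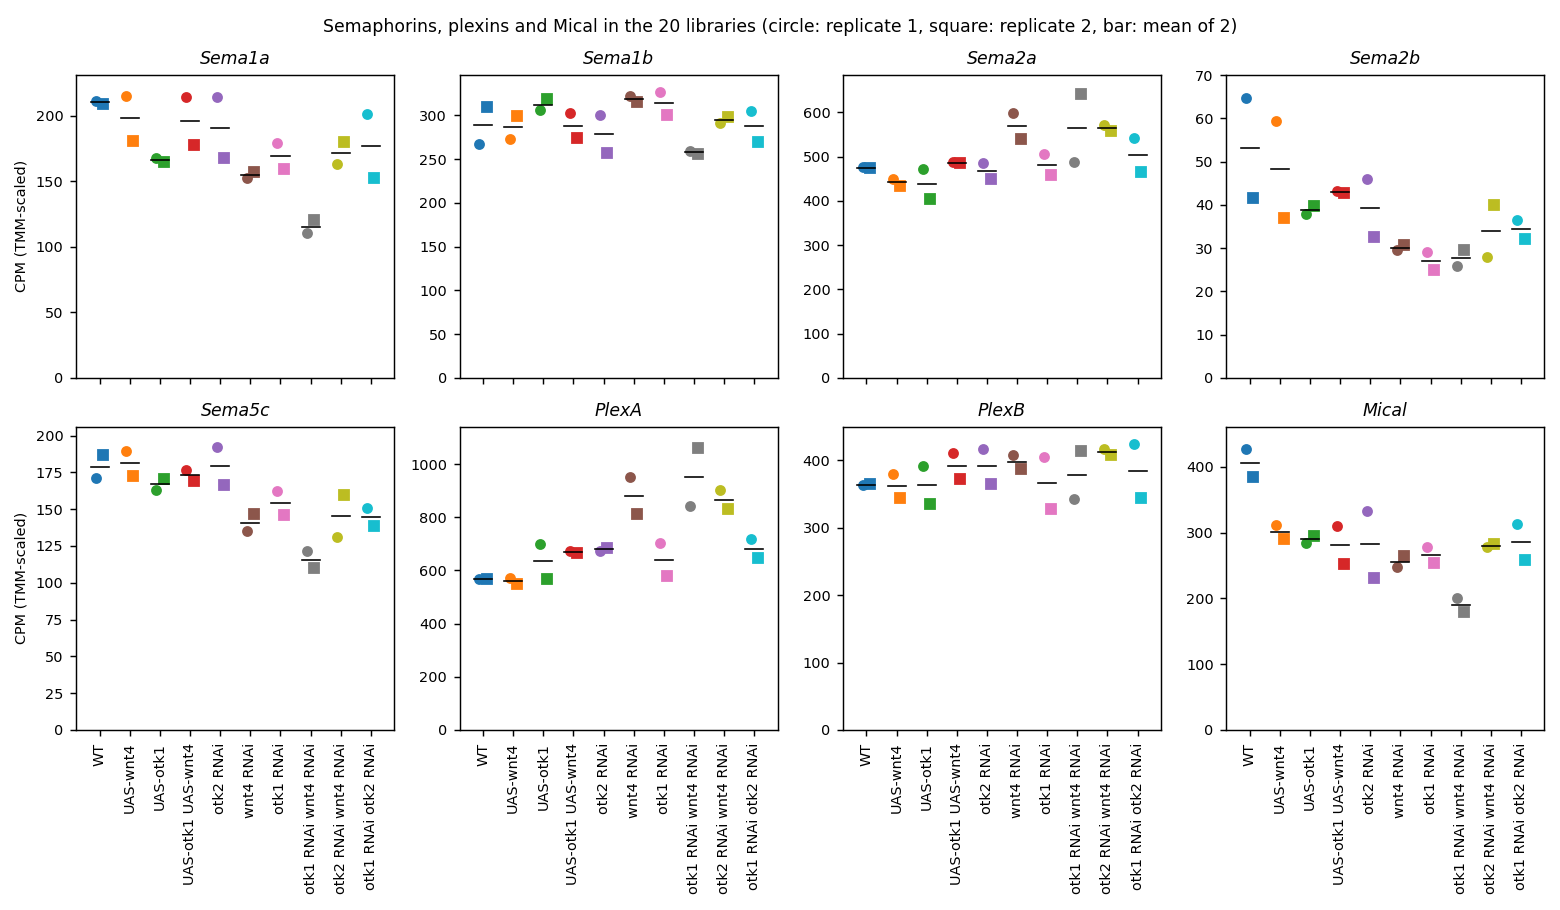
TMM-scaled CPM of the 8 genes (y axes, from 0) in each library, by group (x axis); circles are replicate 1, squares replicate 2, and the bar is the mean of 2. PlexA lies between 811 and 1061 in the 6 libraries whose label names a wnt4 hairpin and between 548 and 719 in the other 14, while Mical is highest in the WT pair.

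PlexA, the receptor of the transmembrane semaphorins, was the member that rose. It was at 567 and 567 CPM in WT and at 952 and 811 in the libraries labelled wnt4 RNAi, a log2 fold change of 0.64 ± 0.14 (SE, adjusted p = 0.00226). Here and below the adjusted p is that of edgeR's quasi-likelihood test over all tested genes, with 0.1 as the threshold. In otk1 RNAi wnt4 RNAi it was at 843 and 1061 CPM, 0.75 ± 0.14 (SE, adjusted p = 5.03e-04) against WT. In otk2 RNAi wnt4 RNAi it was at 901 and 830.1 CPM, 0.61 ± 0.14 (SE, adjusted p = 0.0039). In these 3 groups both libraries lay above both WT libraries, and the rise in CPM came to between 1.53-fold and 1.68-fold. In the deposited TPM the rise was smaller, from a mean of 94.3 in WT to 128, 121 and 132 in these groups in that order.

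The groups with no wnt4 hairpin in their label stayed closer to WT. PlexA was at 703 and 578 CPM in otk1 RNAi (0.18 ± 0.14 (SE, adjusted p = 0.323)), at 675 and 685 in otk2 RNAi (0.26 ± 0.14 (SE, adjusted p = 0.307)) and at 719 and 646 in otk1 RNAi otk2 RNAi (0.27 ± 0.14 (SE, adjusted p = 0.137)). None of these passed the test. The overexpression groups held 569.8 and 548 CPM with UAS-wnt4, 701 and 569 with UAS-otk1 and 674 and 667 with both, and none passed either. Sorted by the labels alone, the 6 libraries labelled with a wnt4 hairpin ranged from 811 to 1061 CPM and the other 14 from 548 to 719, without overlap. No other member of the 8 was ordered in this way. PlexA shared the order with 1448 of the 11154 tested genes (13.0%), and 93 genes (0.834%) had the opposite order.

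PlexB, the receptor of the secreted semaphorins, was the steadiest member in CPM together with Sema1b. It was at 363 and 365 CPM in WT and between 328 and 424 in the other 18 libraries, which surround the WT values. Its log2 fold changes against WT ran from −0.01 to 0.18 and none of 9 passed the test (lowest adjusted p = 0.305). The standard error of each change was 0.14. In the deposited TPM neither gene was as steady. In otk1 RNAi wnt4 RNAi the mean was 45.2 TPM against 60.0 in WT for PlexB, and 50.8 against 78.4 for Sema1b. After removal of the trend with gene length, PlexB did pass in 4 groups, at 0.36 (adjusted p = 0.0556) in the libraries labelled wnt4 RNAi, 0.55 (adjusted p = 0.00802) in otk1 RNAi wnt4 RNAi, 0.35 (adjusted p = 0.0688) in otk2 RNAi wnt4 RNAi and 0.35 (adjusted p = 0.0798) in otk1 RNAi otk2 RNAi.

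Among the ligands of PlexA, Sema1a fell where PlexA rose most in CPM. Sema1a, a transmembrane semaphorin that repels motor axons, was at 211 and 209 CPM in WT and at 110.5 and 120.4 in otk1 RNAi wnt4 RNAi, a log2 fold change of −0.87 ± 0.15 (SE, adjusted p = 4.03e-04). These were its lowest libraries of all 20. In the libraries labelled wnt4 RNAi it was at 152 and 157 CPM (−0.44 ± 0.15 (SE, adjusted p = 0.0275)). It was at 179 and 159.6 CPM in otk1 RNAi (−0.31 ± 0.15 (SE, adjusted p = 0.123)), at 163 and 180.5 in otk2 RNAi wnt4 RNAi (−0.29 ± 0.15 (SE, adjusted p = 0.132)) and at 202 and 153 in otk1 RNAi otk2 RNAi (−0.25 ± 0.15 (SE, adjusted p = 0.213)), and none of these 3 passed. In otk2 RNAi the first library, with 215 CPM, was above WT and the second, with 168, below it. UAS-otk1 held 168 and 165 CPM (−0.34 ± 0.15 (SE, adjusted p = 0.186)).

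Sema5c, a transmembrane semaphorin with thrombospondin repeats, fell in 4 groups. It was at 171 and 187 CPM in WT and at 122 and 109.8 in otk1 RNAi wnt4 RNAi, −0.63 ± 0.12 (SE, adjusted p = 7.35e-04). The libraries labelled wnt4 RNAi held 135 and 147 CPM (−0.34 ± 0.12 (SE, adjusted p = 0.0294)). Both groups lay below WT in both libraries, as did otk2 RNAi wnt4 RNAi with 131 and 159.8 CPM (−0.30 ± 0.12 (SE, adjusted p = 0.0568)) and otk1 RNAi otk2 RNAi with 151 and 138 CPM (−0.31 ± 0.12 (SE, adjusted p = 0.0606)). In otk1 RNAi it was at 162 and 146 CPM (−0.21 ± 0.12 (SE, adjusted p = 0.177)), and in the other 4 groups its log2 fold change lay between −0.10 and 0.02. Sema1b, the other transmembrane ligand of PlexA, passed in none of 9 comparisons with WT. It was at 268 and 310.0 CPM in WT and between 256 and 327 elsewhere, with log2 fold changes of −0.16 to 0.14 and a lowest adjusted p of 0.225.

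Of the secreted pair, Sema2b fell in 5 groups and Sema2a passed in none. Sema2b, which guides axons in the longitudinal tracts of the nerve cord and is the least abundant member, was at 64.8 and 41.6 CPM in WT, so that the WT pair itself lay apart. It was at 29.2 and 24.9 CPM in otk1 RNAi, a log2 fold change of −0.98 ± 0.25 (SE, adjusted p = 0.0133), the lowest of its 9. In otk1 RNAi wnt4 RNAi it was at 26.0 and 29.6 CPM (−0.94 ± 0.25 (SE, adjusted p = 0.00601)) and in the libraries labelled wnt4 RNAi at 29.5 and 30.7 (−0.82 ± 0.25 (SE, adjusted p = 0.014)). In otk2 RNAi wnt4 RNAi it was at 28.0 and 39.9 CPM (−0.65 ± 0.25 (SE, adjusted p = 0.0445)) and in otk1 RNAi otk2 RNAi at 36.6 and 32.1 (−0.63 ± 0.25 (SE, adjusted p = 0.0586)). All 10 libraries of these 5 groups lay below both WT libraries. The call rests in part on the first WT library, because without it the change lost significance in 4 of the 5 groups: −0.48 (adjusted p = 0.186) in the libraries labelled wnt4 RNAi, −0.62 (adjusted p = 0.175) in otk1 RNAi, −0.30 (adjusted p = 0.428) in otk2 RNAi wnt4 RNAi and −0.28 (adjusted p = 0.494) in otk1 RNAi otk2 RNAi. In otk1 RNAi wnt4 RNAi it stood, with −0.59 (adjusted p = 0.0912).

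Sema2a, a repellent secreted by muscles and neurons, was at 477 and 473 CPM in WT, 598 and 539 in the libraries labelled wnt4 RNAi (0.26 ± 0.13 (SE, adjusted p = 0.106)), 489 and 641 in otk1 RNAi wnt4 RNAi (0.25 ± 0.13 (SE, adjusted p = 0.113)) and 571 and 558 in otk2 RNAi wnt4 RNAi (0.25 ± 0.13 (SE, adjusted p = 0.127)). All 6 of these libraries were above the WT pair in CPM, by less than the threshold asks. In TPM the mean of Sema2a was 155 in WT and 157, 133 and 165 in these groups in that order. The 3 lowest adjusted p-values of Sema2a were those of the same groups, from 0.106 to 0.127.

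Mical, the flavoprotein monooxygenase through which PlexA takes actin filaments apart, was lower than WT in both libraries of all 9 groups. It was at 427 and 384 CPM in WT, the 2 highest values of the 20, and at 201 and 179 in otk1 RNAi wnt4 RNAi, the 2 lowest. That change was −1.09 ± 0.16 (SE, adjusted p = 1.03e-04), the largest of any member in any comparison. In the libraries labelled wnt4 RNAi it was at 247 and 265 CPM (−0.66 ± 0.16 (SE, adjusted p = 0.00402)), in otk1 RNAi at 278 and 254 (−0.61 ± 0.16 (SE, adjusted p = 0.0146)) and in otk2 RNAi wnt4 RNAi at 277 and 282 (−0.53 ± 0.16 (SE, adjusted p = 0.015)). It was at 313 and 259 CPM in otk1 RNAi otk2 RNAi (−0.50 ± 0.16 (SE, adjusted p = 0.025)) and at 311 and 252 in UAS-otk1 UAS-wnt4 (−0.53 ± 0.16 (SE, adjusted p = 0.0996)), the single call of any member under overexpression. UAS-otk1 with 284 and 295 CPM (−0.48 ± 0.16 (SE, adjusted p = 0.118)), otk2 RNAi with 333 and 231 (−0.52 ± 0.16 (SE, adjusted p = 0.147)) and UAS-wnt4 with 311 and 290.0 (−0.43 ± 0.16 (SE, adjusted p = 0.669)) did not pass. Since every group lies on the same side of the WT pair, these 9 comparisons share the height of WT. The share of all tested genes that were highest in the WT pair was not counted. The mean log2 CPM of glia, of trachea and of hemocyte genes was highest there too. That of neuron, of muscle and of cuticle genes was not highest in both WT libraries. In whole embryos, fewer cells of a type and less RNA per cell cannot be told apart for any of these genes.

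**Figure D2:**
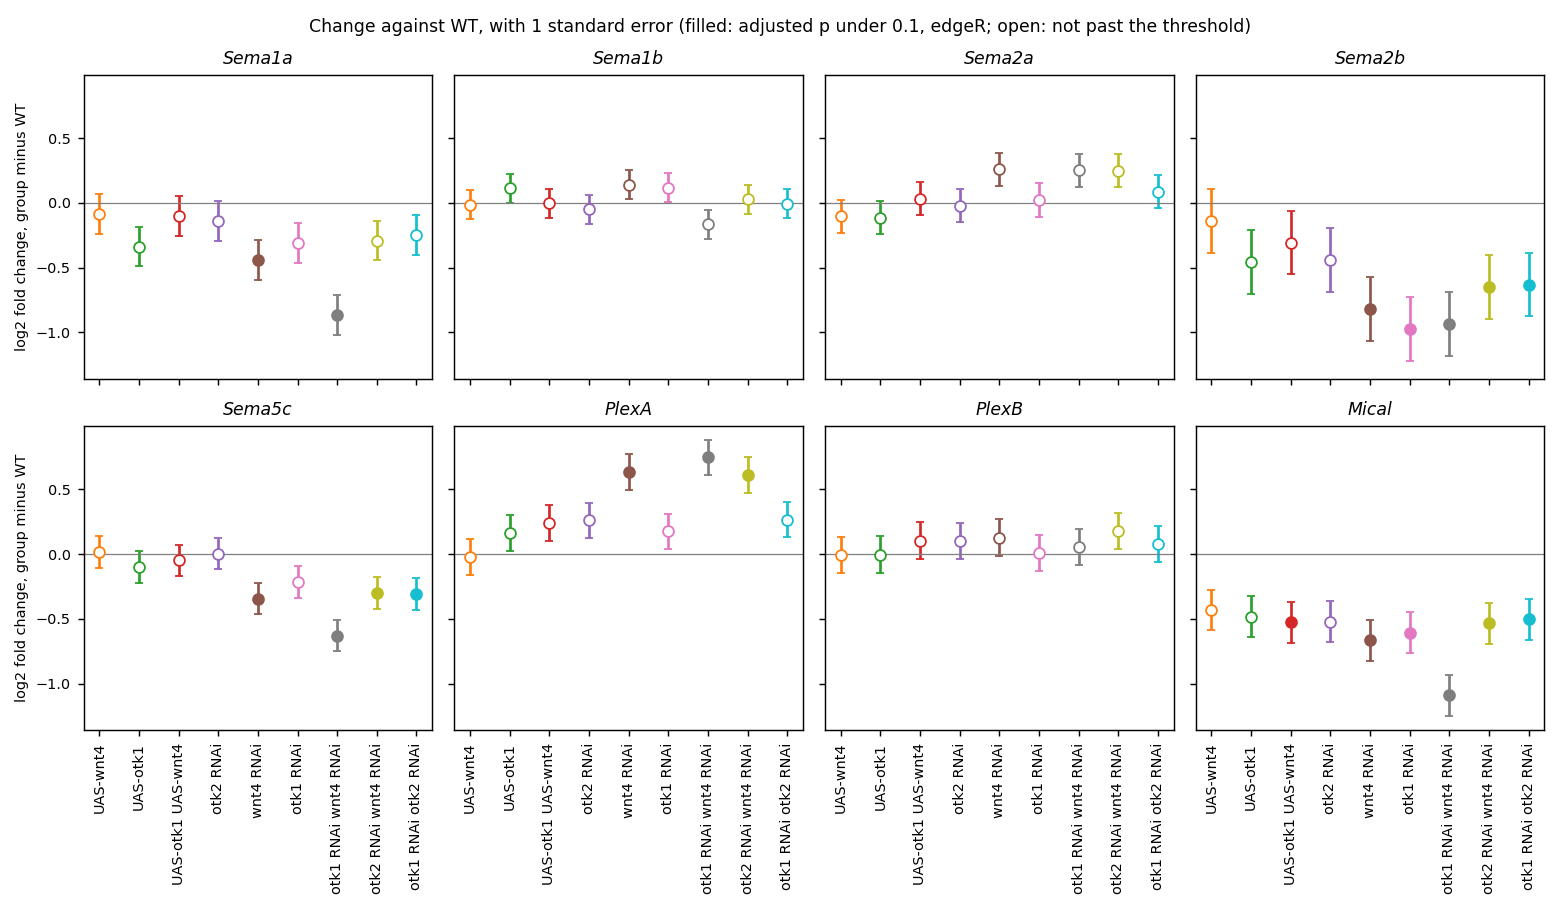
Log2 fold change of each member against WT (y axis, shared) in the 9 other groups (x axis), with 1 standard error; filled points have an adjusted p under 0.1 and open points do not. PlexA is raised in the 3 groups whose label names a wnt4 hairpin, at 0.61 to 0.75, and Mical lies below 0 in all 9 groups, down to −1.09.

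Counted by comparison, the members followed the size of the response of all genes. Under overexpression, 0 of 8 members passed for UAS-wnt4 (0.61% of all tested genes), 0 for UAS-otk1 (2.84%) and 1 for UAS-otk1 UAS-wnt4 (4.82%), and 0 passed in otk2 RNAi (1.78%). At an unadjusted p under 0.05 edgeR gave 1 member for UAS-wnt4, 2 for UAS-otk1 and 1 for otk2 RNAi, and DESeq2 called 0, 1 and 1, Mical in each case. For UAS-otk1 and otk2 RNAi more members were called without the second WT library, and so were more of all tested genes. That fit leaves 1 library in WT. In otk2 RNAi, leaving out its first library also moved the count. The call of Mical in UAS-otk1 UAS-wnt4 was lost without the first WT library and without either library of that group. In the libraries labelled wnt4 RNAi 5 members passed, 1 higher and 4 lower, where 59.2% of all tested genes did. In otk1 RNAi 2 passed (45.5% of all genes), in otk1 RNAi wnt4 RNAi 5 (62.2%), in otk2 RNAi wnt4 RNAi 4 (54.7%) and in otk1 RNAi otk2 RNAi 3 (46.8%). In these 5 groups the shares of the 8 members were near or below those of all genes. The median log2 fold change of the 8 was −0.11 in the libraries labelled wnt4 RNAi (all genes −0.03), −0.40 in otk1 RNAi wnt4 RNAi (all genes −0.08) and −0.13 in otk1 RNAi otk2 RNAi (all genes 0.02).

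How firmly these calls stand differs between the groups. In otk1 RNAi wnt4 RNAi the calls of Sema1a, Sema5c, PlexA and Mical were kept under all 10 alternatives, among them the stage score as a covariate, with −0.77 (adjusted p = 0.0316), −0.58 (adjusted p = 0.0348), 0.64 (adjusted p = 0.0447) and −0.95 (adjusted p = 0.0153) in that order. Removing each library's trend with gene length left the same 4 calls, with Sema1a at −0.26 (adjusted p = 0.0676), Mical at −0.39 (adjusted p = 0.00189) and PlexA at 1.23 (adjusted p = 1.57e-04). In the other 4 knockdown groups with calls, no member passed once the stage score was a covariate: PlexA was then at 0.52 (adjusted p = 0.254) in the libraries labelled wnt4 RNAi and at 0.50 (adjusted p = 0.35) in otk2 RNAi wnt4 RNAi. In that fit 3375 of all 11154 tested genes passed in otk1 RNAi wnt4 RNAi. The number was 309 in the libraries labelled wnt4 RNAi and 175 in otk2 RNAi wnt4 RNAi. In otk1 RNAi it was 32, and in otk1 RNAi otk2 RNAi 53. The groups thus differed in this over all genes, not only in the members. Because the WT libraries are among the highest in score, that fit cannot tell the age of the embryos apart from the genotype. Single libraries mattered as well: the 2 calls of otk1 RNAi were lost without the first WT library or the second library of that group, and the 3 calls of otk1 RNAi otk2 RNAi became 0 without the first WT library or its own second library and 2 without the second WT library. Calls of otk2 RNAi wnt4 RNAi were lost without its first library. Each of these fits leaves 1 library in a group. Without the first WT library, or without the named library of the group itself, fewer of all tested genes passed too.

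Direct comparisons between the knockdown groups leave WT out. Setting otk1 RNAi wnt4 RNAi against otk1 RNAi compares libraries that differ by a wnt4 hairpin in the label, though not in the level of Wnt4 (76.6 and 89.2 against 90.1 and 89.4 CPM), and 5 of 8 members passed (31.2% of all genes). PlexA rose from 703 and 578 to 843 and 1061 CPM (0.57 ± 0.14 (SE, adjusted p = 0.00994)). Sema1a fell (−0.55 ± 0.15 (SE, adjusted p = 0.0191)), as did Mical (−0.48 ± 0.16 (SE, adjusted p = 0.0397)), Sema5c (−0.41 ± 0.12 (SE, adjusted p = 0.0244)) and Sema1b (−0.28 ± 0.11 (SE, adjusted p = 0.0831)). Sema2a, at a mean of 482 CPM in otk1 RNAi and 565 in otk1 RNAi wnt4 RNAi, and Sema2b, at 27.1 and 27.8, did not fall. Of the semaphorins, Sema1a, Sema1b and Sema5c thus moved opposite to PlexA, Sema1b least firmly. Its call was lost in 7 of the 10 alternatives, among them no filter, the stage score and the length trend. In each of the 5 called genes the libraries of the groups did not overlap, which adds little to a call with 2 libraries on each side. The share of all tested genes without overlap was not counted, here or against WT. With the stage score as a covariate 4 of these calls were kept, PlexA at 0.61 (adjusted p = 0.00709) and Sema1a at −0.59 (adjusted p = 0.0179), and with the length trend removed 2 were. Of all 11154 tested genes, 3768 passed in the former fit and 3343 in the latter. Without the first library of otk1 RNAi 1 call was left, without its second 3, and without the second library of otk1 RNAi wnt4 RNAi 1.

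The matching pair for otk2 gave smaller values. In otk2 RNAi wnt4 RNAi against otk2 RNAi no member passed (20.8% of all genes), with PlexA at 0.35 ± 0.14 (SE, adjusted p = 0.107) and Sema5c at −0.30 ± 0.12 (SE, adjusted p = 0.114). These 2 had an unadjusted p under 0.05 with edgeR, and DESeq2 called 1 member, Sema5c. In otk1 RNAi wnt4 RNAi against the libraries labelled wnt4 RNAi no member passed either (0.646% of all genes). These groups differ by an otk1 hairpin in the label, and also in the mean level of Wnt4 (82.9 against 151 CPM). There Sema1a was at −0.42 ± 0.15 (SE, adjusted p = 0.256), Mical at −0.43 ± 0.16 (SE, adjusted p = 0.263), Sema1b at −0.31 ± 0.11 (SE, adjusted p = 0.261) and Sema5c at −0.28 ± 0.12 (SE, adjusted p = 0.303). All 4 had an unadjusted p under 0.05 with edgeR, and DESeq2 called 0.

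Between the single knockdowns, the libraries labelled wnt4 RNAi against otk1 RNAi, PlexA was the 1 member that passed (0.46 ± 0.14 (SE, adjusted p = 0.0696), where 9.64% of all genes passed), and that call was lost whichever of the 4 libraries was left out. The remaining 5 pairs called no member, with edgeR or, but for 1, with DESeq2. In otk1 RNAi otk2 RNAi against otk2 RNAi (8.68% of all genes) DESeq2 called Sema5c, which edgeR gave as −0.31 ± 0.12 (SE, adjusted p = 0.161), the 1 member there with an unadjusted p under 0.05. No member had an unadjusted p under 0.05 in otk1 RNAi otk2 RNAi against otk1 RNAi (0.233% of all genes), in otk2 RNAi wnt4 RNAi against the libraries labelled wnt4 RNAi (0.179%), or in UAS-otk1 UAS-wnt4 against UAS-otk1 (0.717%) and against UAS-wnt4 (0.215%). Where the otk2 hairpin was added to another hairpin, so few of all genes passed that the lack of a call says little about these 8. Tested for any difference across the 10 groups, 6 of the 8 members passed (64.1% of all genes), from PlexA (adjusted p = 0.00211) to Sema2a (adjusted p = 0.0984), and Sema1b (0.361) and PlexB (0.904) did not. Sema2a lost that call under RLE scaling (adjusted p = 0.123) and once the stage score was a covariate (0.144), where Sema2b lost it too (adjusted p = 0.26).

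The balance of ligand and receptor can also be read within a library, where scaling cancels. Sema1a over PlexA, as a ratio of CPM, was 0.373 and 0.369 in WT and 0.131 and 0.114 in otk1 RNAi wnt4 RNAi. The libraries labelled wnt4 RNAi had 0.160 and 0.194 and otk2 RNAi wnt4 RNAi 0.181 and 0.217, against 0.255 and 0.276 in otk1 RNAi and 0.318 and 0.245 in otk2 RNAi. All 6 libraries labelled with a wnt4 hairpin had lower ratios than all 14 others, of which the lowest were 0.237 in otk1 RNAi otk2 RNAi and 0.240 in UAS-otk1. Sema5c over PlexA followed, from 0.302 and 0.329 in WT to 0.144 and 0.103 in otk1 RNAi wnt4 RNAi. PlexA over PlexB rose from 1.56 and 1.55 in WT to 2.46 and 2.57 in that group and 2.33 and 2.09 in the libraries labelled wnt4 RNAi. For the secreted pair, Sema2b over Sema2a went from 0.136 and 0.0879 in WT to 0.0532 and 0.0461 in otk1 RNAi wnt4 RNAi. These ratios restate the levels given above and are not tested.

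**Figure D3:**
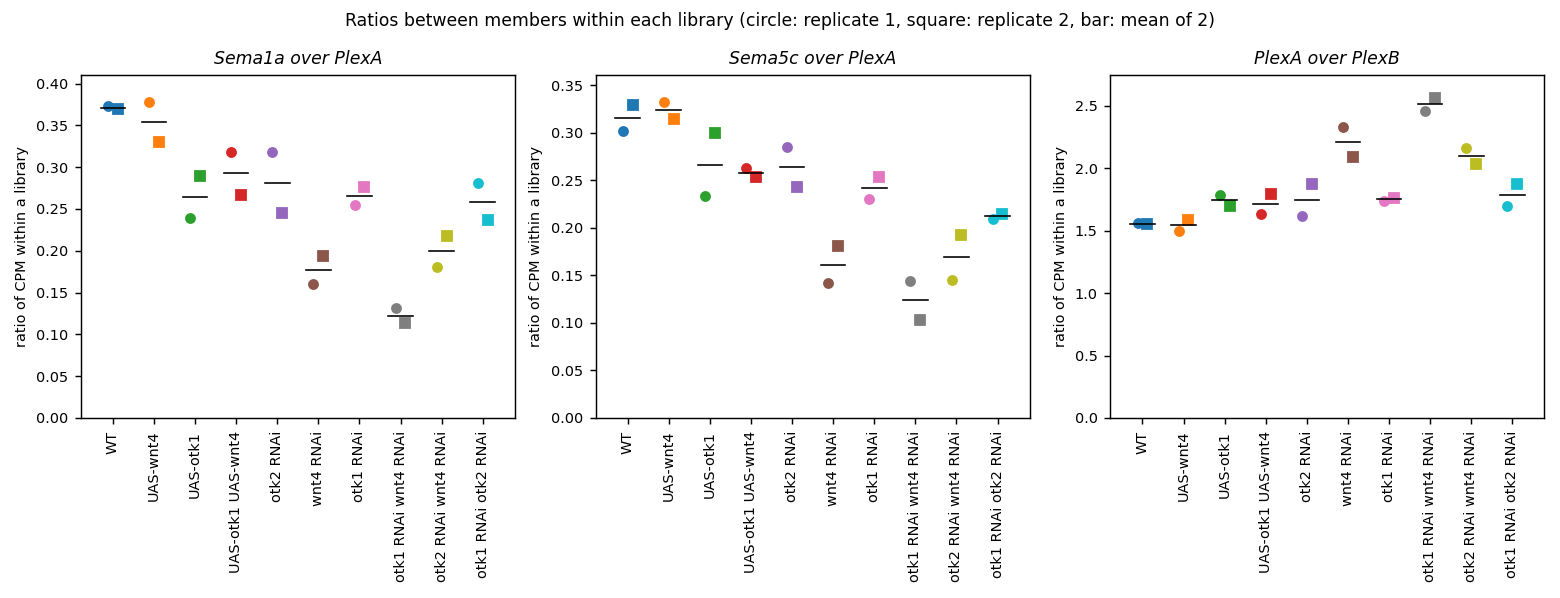
Ratios of CPM within each library (y axes, from 0) for Sema1a over PlexA, Sema5c over PlexA and PlexA over PlexB, by group (x axis); circles are replicate 1, squares replicate 2, and the bar is the mean of 2. Sema1a over PlexA falls from 0.373 and 0.369 in WT to 0.131 and 0.114 in otk1 RNAi wnt4 RNAi.

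A list of 17 genes known to work with semaphorins and plexins, all tested, places the members in their pathway. Of all tested genes, 30.9% rose and 31.4% fell in otk1 RNAi wnt4 RNAi, 29.7% and 29.5% in the libraries labelled wnt4 RNAi, 21% and 24.5% in otk1 RNAi, 27.7% and 27% in otk2 RNAi wnt4 RNAi and 22.5% and 24.4% in otk1 RNAi otk2 RNAi, each against WT. Of the 17, 10 rose and 5 fell in otk1 RNAi wnt4 RNAi (median log2 fold change 0.55, all genes −0.08), and 9 rose and 5 fell in the libraries labelled wnt4 RNAi (0.35, all genes −0.03). In otk2 RNAi wnt4 RNAi 10 rose and 5 fell, and in otk1 RNAi and in otk1 RNAi otk2 RNAi 6 rose and 5 fell. Of these, otk and otk2 fell in each of the 5 groups, also where the label names no hairpin against them. Mean otk was at 122 CPM in the libraries labelled wnt4 RNAi against 188 in WT. Mean otk2 was at 48.9 CPM in otk1 RNAi against 64.5 in WT. Gyc76C, a receptor guanylyl cyclase that acts with Sema1a and PlexA, was at 80.8 and 99.8 CPM in WT, 191 and 162 in the libraries labelled wnt4 RNAi and 186 and 212 in otk1 RNAi wnt4 RNAi (1.14 ± 0.13 (SE, adjusted p = 2.96e-05) against WT). Like PlexA, it was higher in all 6 libraries labelled with a wnt4 hairpin (162 to 212 CPM) than in any of the other 14 (75.6 to 121 CPM). The kinase gene Abl, whose product phosphorylates Mical, had the same order, with 310.1 and 391 CPM in otk1 RNAi wnt4 RNAi against 194 and 222 in WT (0.76 ± 0.13 (SE, adjusted p = 2.45e-04)). The cofilin gene tsr, which severs the actin that Mical has oxidized, was at 1404 and 1869.6 CPM against 716 and 718 (1.19 ± 0.16 (SE, adjusted p = 5.31e-05)). Neither rise was confined to the group where Mical was lowest. Mean Abl was at 351 CPM there, 355 in the libraries labelled wnt4 RNAi and 343 in otk2 RNAi wnt4 RNAi, against 208 in WT. Mean tsr was at 1637, 1173 and 1139 CPM in that order, against 717 in WT. SelR, the reductase that reverses the oxidation of actin, rose in otk1 RNAi wnt4 RNAi against WT (0.55 ± 0.10 (SE, adjusted p = 4.83e-04)) and against otk1 RNAi (0.56 ± 0.10 (SE, adjusted p = 0.00302)). SelR, 14-3-3epsilon, RhoGAPp190, Rac1 and Rap1 of the list also had the order of PlexA, Gyc76C and Abl, as did 13.0% of all tested genes. A link of these levels to Mical was not tested.

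Other members of that list fell. The heparan sulfate proteoglycan gene trol, which modulates Sema1a signaling in motor axons, was at 485 and 313 CPM in WT and at 183 and 124 in otk1 RNAi wnt4 RNAi (−1.37 ± 0.29 (SE, adjusted p = 0.00124)). The anchoring protein gene nvy and the protein kinase A subunit gene Pka-R2, whose products bind PlexA together and counter its signal, fell in each of the 5 knockdown groups with many calls, nvy by 0.32 to 0.55 and Pka-R2 by 0.54 to 0.65 on the log2 scale. Genes of other guidance systems, 22 in the list (netrin, slit, robo, ephrin and Wnt5 pathways among them), were more often lower than higher, beside the shares of all genes just given: 17 were lower and 2 higher in otk1 RNAi wnt4 RNAi (median −0.80, all genes −0.08), 15 and 3 in the libraries labelled wnt4 RNAi (−0.56, all genes −0.03), 12 and 1 in otk1 RNAi (−0.34, all genes 0.0018), 14 and 1 in otk2 RNAi wnt4 RNAi (−0.41, all genes −0.03) and 12 and 1 in otk1 RNAi otk2 RNAi (−0.39, all genes 0.02). Sema1a, Sema2b, Sema5c and Mical moved in the direction of that list. PlexA did not, nor did Sema2a, which like Sema1b and PlexB passed in none of these groups.

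Tissue markers moved with the same groups. Of 12 neuron genes, 12 fell in the libraries labelled wnt4 RNAi, 11 in otk1 RNAi, 12 in otk1 RNAi wnt4 RNAi, 12 in otk2 RNAi wnt4 RNAi and 9 in otk1 RNAi otk2 RNAi, and 11 of 11 muscle genes fell in each, while none of either list rose. Lower shares of all tested genes fell there, from 24.4% to 31.4%. Of 7 glia genes 4 to 6 fell and of 5 trachea genes 4 to 5, with none higher, while 6 to 9 of 12 maternal and germ plasm genes rose and 1 fell. The neuron score (mean log2 CPM of the 12 genes) was 6.05 and 5.33 in WT and 4.49 to 5.85 in the other 18 libraries. All 12 neuron markers passed the filter on low counts. Over the 20 libraries the log2 CPM of Sema2b had a Pearson r of 0.89 with the neuron score, and of its deviations from the group means 0.88. The r with the neuron score was 0.68 for Sema1a, 0.74 for Sema5c, 0.73 for Mical, −0.63 for PlexA, −0.51 for Sema2a, −0.14 for Sema1b and −0.11 for PlexB. Other scores ran as closely with some members, the trachea score at 0.85 with Sema5c and −0.77 with PlexA, and the glia score at 0.81 with Sema5c and 0.78 with Mical. Sema2b had an r of 0.84 with the trachea score, 0.79 with muscle, 0.76 with glia and 0.87 with the other guidance genes. For deviations from the group means, Sema2b had an r of −0.89 with the maternal and germ plasm score. These are descriptions over libraries that share groups, depth and age differences. Sema2b is the member with the highest r with the neuron score, also for deviations from the group means. With 2 libraries in a group these deviations mirror each other, so every r of deviations rests on 1 difference per group. The neuron score differed most in WT (6.05 and 5.33) and UAS-wnt4 (5.85 and 4.98), as did Sema2b (SD 16.4 and 15.8 CPM). In UAS-otk1 UAS-wnt4 the score was 5.16 and 4.83, with an SD of 0.303 CPM for Sema2b. The part of the neurons, or of any other cell type, in the changes of the members was not tested.

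**Figure D4:**
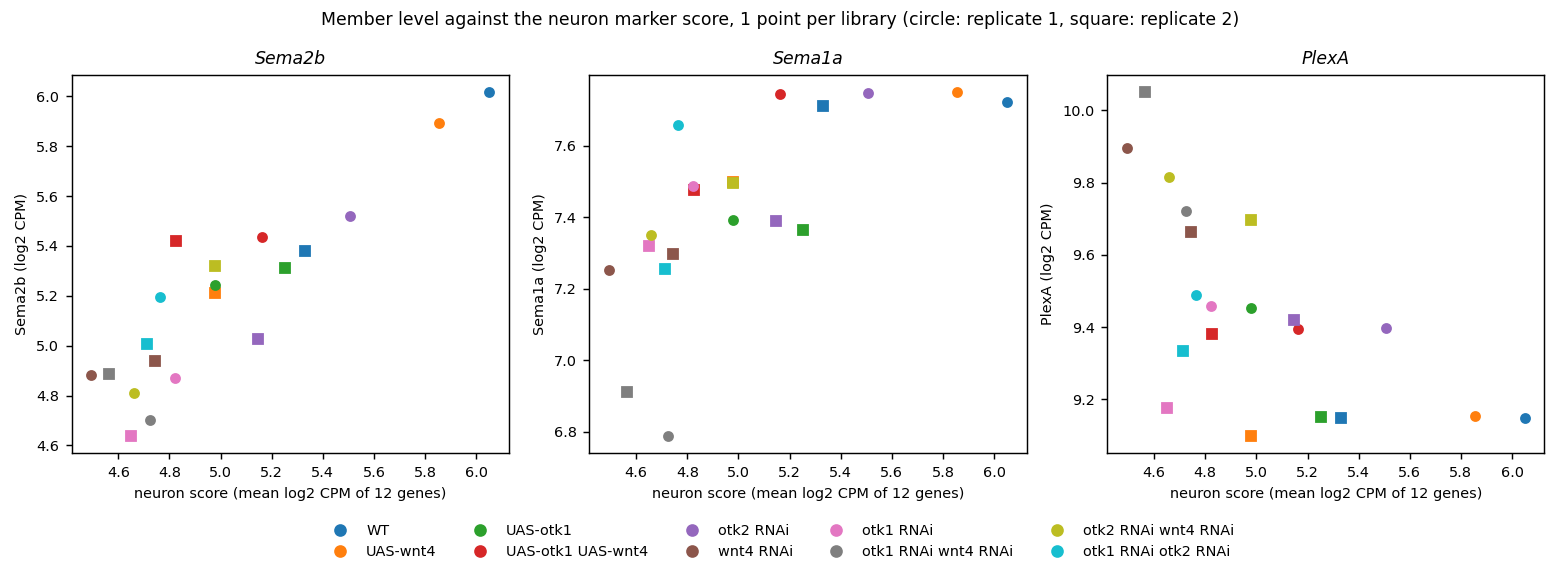
Log2 CPM of Sema2b, Sema1a and PlexA (y axes) against the neuron score, the mean log2 CPM of 12 neuron genes (x axes), 1 point per library, colored by group; circles are replicate 1 and squares replicate 2. Sema2b follows the score over all 20 libraries (r = 0.89), and PlexA is highest where the score is low (r = −0.63).

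Among themselves, the members fell into sets that moved together over the 20 libraries. Sema1a went with Sema5c (r = 0.87) and with Mical (r = 0.87), and with Sema2b at 0.75. Sema2a went with PlexA (r = 0.89, and 0.91 for deviations from the group means), although its known receptor is PlexB, and with PlexB at 0.72. Sema5c and PlexA were opposed (r = −0.77), but not within groups (−0.21). Sema1b had no r above 0.38 with another member.

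For each member the 3 named genes with the most similar levels were looked up among the 5863 tested genes that averaged 100 counts or more. Sema1a was most like crol (r = 0.97), l(3)neo38 (0.97) and zfh2 (0.97), which code for zinc finger proteins. Sema2b was most like KaiR1D (0.97), a kainate-type glutamate receptor, metro (0.97) and loaf (0.96). Sema5c was most like Tmem63 (0.95), jar (0.95), the myosin VI gene, and pan (0.94), the TCF factor of Wnt signaling. PlexA was most like mts (0.95), the catalytic subunit of protein phosphatase 2A, heix (0.95) and Eb1 (0.95), a microtubule end-binding protein. Mical was most like kst (0.97), the heavy beta spectrin gene, hiw (0.96) and RyR (0.95), the ryanodine receptor. For Sema2a they were udt (0.94), Fas1 (0.93) and Fur1 (0.92), for PlexB Eph (0.85), the ephrin receptor, ed (0.82) and Ent2 (0.82), and for Sema1b sll (0.88), Not3 (0.87) and ari-2 (0.86). The likeness was thus weaker for Sema1b and PlexB, the members that varied least in CPM.

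Which transcripts were read can be followed in part, because RSEM gives for each gene the mean length of its transcripts, weighted by their estimated shares. For Sema2b this length fell into separate ranges. It was 4177 and 4218 bases in otk2 RNAi, 4162 and 4111 in the libraries labelled wnt4 RNAi, 4141 and 4203 in otk2 RNAi wnt4 RNAi and 4328 and 4214 in otk1 RNAi otk2 RNAi. The other 12 libraries lay between 4475 and 4742 bases, with 4536 and 4626 in WT, 4563 and 4742 in otk1 RNAi and 4631 and 4544 in otk1 RNAi wnt4 RNAi. The 8 libraries of the 4 groups were thus all shorter than the other 12, although otk1 RNAi wnt4 RNAi shares a hairpin label with them. Sema2b has 4 annotated transcripts, of 3718 (RA), 4174 (RB), 5034 (RC) and 4174 (RD) bases, whose coding parts of 2352 to 2472 bases differ little. Of 6380 tested genes with more than 1 transcript, 8 (0.125%) were shorter and 1 was longer in the same 8 libraries without overlap, a division that was chosen after the values of Sema2b were seen and is not tested.

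The level of Sema2b did not follow its length, since otk1 RNAi, with 29.2 and 24.9 CPM, was among the longest. PlexA was at 6696 and 6650.2 bases in WT and shortest in otk1 RNAi wnt4 RNAi, at 6294 and 6388, where its mean CPM was highest. Its annotated transcripts run from 5153 to 10243 bases. Mical ranged from 9977 to 11046 bases, with 11046 and 10507 in WT, and the WT range overlaps that of other groups. PlexB (6722 to 6742 bases), Sema2a (3511 to 3535) and Sema5c (4357 to 4381) hardly varied.

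**Figure D5:**
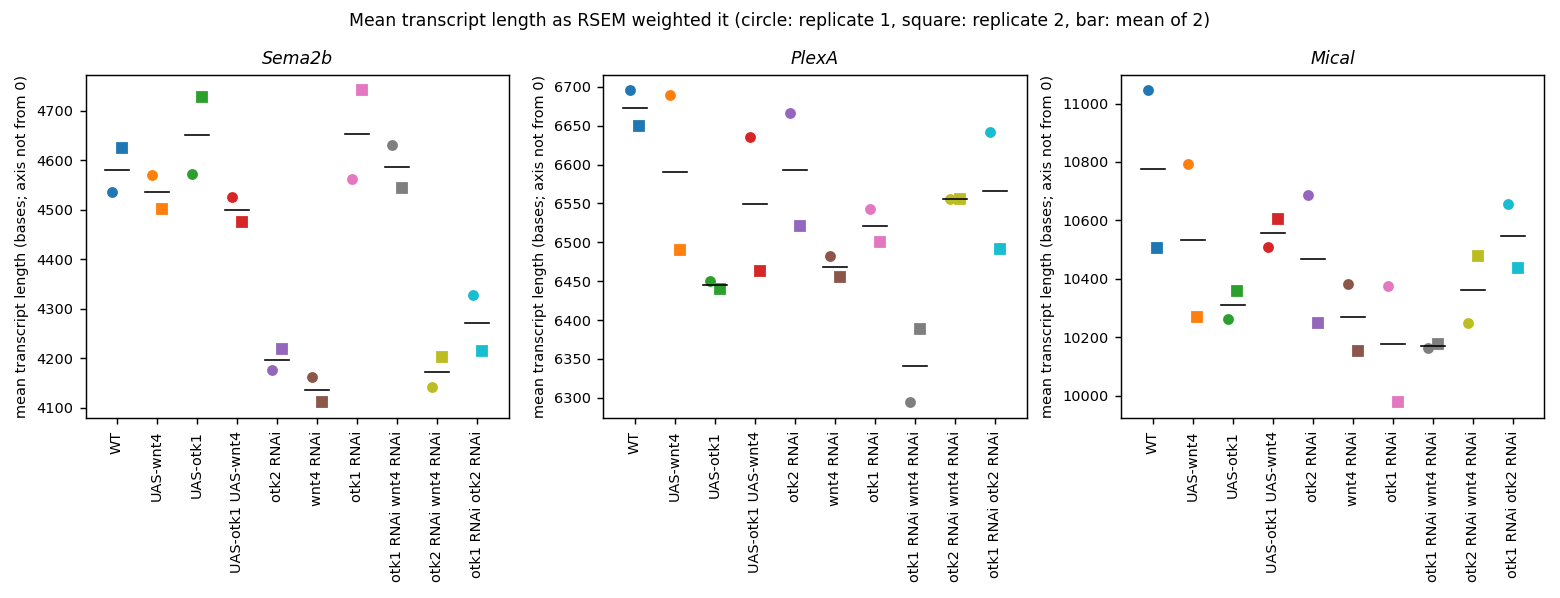
Mean transcript length that RSEM assigned to Sema2b, PlexA and Mical (y axes, in bases, not starting at 0) in each library, by group (x axis); circles are replicate 1, squares replicate 2, and the bar is the mean of 2. Sema2b lies between 4111 and 4328 bases in 4 knockdown groups and between 4475 and 4742 in the other 6 groups.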

How the data were processed

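Total RNA of 20 embryo libraries was sequenced in paired reads of 151 bp. The authors aligned reads to dm6 with STAR 2.7.1a and ran RSEM 1.3.1, and the deposited files give its estimate for each gene as an expected count, as TPM and as FPKM. RSEM divides reads that fit several genes, so 11.6% of the expected counts are not whole, and all were rounded. Gene types that the study's methods remove (426 genes) and genes with a mean under 10 counts were left out, and 11154 were tested. The spread between libraries limits precision (common dispersion 0.0336).

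Counts were tested with edgeR 4.0.16 (quasi-likelihood, TMM, all 20 libraries in 1 fit), adjusted by Benjamini-Hochberg within a comparison over all tested genes, at the study's threshold of 0.1. Standard errors come from the same test, which was checked on simulated counts. Names come from Ensembl release 115. All 8 members, the targeted genes, the partners with the largest changes and the 3 most similar genes of each member are named. Members and lists were chosen with earlier results of these data known. SelR, nvy and Pka-R2 were named after their values were seen. Alternatives were DESeq2 1.42.0, RLE scaling, no filter, a block for the replicate number, a covariate for the stage score, removal of the trend with gene length and leaving out each library. Sequences are not used here. Software was R 4.3.3 with limma 3.58.1, and Python 3.11.15 with numpy 2.4.6, pandas 2.3.3 and, for the plots, matplotlib 3.10.9.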

Additional observations from a re-analysis of the deposited data

How the results depend on the processing

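Counts of members past the threshold that moved by over 1.5 times, or that came to or from 0, are given first. With the stage score as a covariate, 0 passed for UAS-otk1 UAS-wnt4, the libraries labelled wnt4 RNAi, otk1 RNAi, otk2 RNAi wnt4 RNAi and otk1 RNAi otk2 RNAi, each against WT. Of all 11154 tested genes, 32 to 309 passed in these comparisons. With the gene length trend removed, 0 passed for UAS-otk1 UAS-wnt4 against WT and for the libraries labelled wnt4 RNAi against otk1 RNAi, 4 for otk1 RNAi against WT, 2 for otk1 RNAi wnt4 RNAi against otk1 RNAi and 1 for otk2 RNAi wnt4 RNAi against otk2 RNAi. RLE scaling gave 1 in the last of these and 0 for the libraries labelled wnt4 RNAi against otk1 RNAi. DESeq2 and the replicate block each gave 1 for UAS-otk1 and for otk2 RNAi against WT and for otk2 RNAi wnt4 RNAi against otk2 RNAi, and DESeq2 gave 1 for otk1 RNAi otk2 RNAi against otk2 RNAi. Across the 10 groups 6 members passed, 5 under RLE scaling and 4 with the stage score. A like count can hide other members: with the length trend removed 2 passed in otk1 RNAi otk2 RNAi against WT in place of 3, but all 3 calls were lost and PlexA and PlexB came in. Of the 26 calls of single members, DESeq2 and the replicate block kept 26, RLE scaling 25, no filter 23, the length trend 17 and the stage score 9. New calls came to 4 with DESeq2, 4 with the replicate block, 1 with RLE scaling, 2 with no filter and 11 with the length trend. With the stage score Sema2b turned to 0.081 in otk2 RNAi wnt4 RNAi and to 0.34 in otk1 RNAi otk2 RNAi against WT, neither past the threshold, and the cause was not tested. Leaving out 1 library gave 0 to 2 members for UAS-otk1, 0 to 1 for UAS-otk1 UAS-wnt4, 0 to 2 for otk2 RNAi, 4 to 6 for the libraries labelled wnt4 RNAi, 0 to 2 for otk1 RNAi, 5 to 6 for otk1 RNAi wnt4 RNAi, 2 to 4 for otk2 RNAi wnt4 RNAi and 0 to 3 for otk1 RNAi otk2 RNAi against WT, 1 to 5 for otk1 RNAi wnt4 RNAi against otk1 RNAi, 0 to 1 for otk2 RNAi wnt4 RNAi against otk2 RNAi, 0 for the libraries labelled wnt4 RNAi against otk1 RNAi, and 0 in the other 7 comparisons. Each fit without 1 library leaves 1 in a group, and calls over all tested genes moved as well. Replicate numbers were not treated as pairs in the main fit. Same-numbered libraries had a median correlation of 0.06 over 45 pairs of groups, from −0.23 to 0.63 and above 0.1 in 17. Some groups may thus share a replicate pattern. The replicate block raised the calls over all genes for UAS-otk1 against WT from 317 to 1071. PlexA had at least 18104 counts in every library and Sema2b at least 759, so that the spread between the 2 libraries of a group, not depth, limits what can be called.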
